A study of Homo sapiens with 12 samples.

Results

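The CEP genes, named for centrosomal proteins, were taken as every gene whose symbol is CEP followed by a digit and that had an m6A peak in at least 1 of 6 peak lists. There were 31 such genes among the 10536 genes with a peak. Of these, 30 encode proteins, and CEP83-DT is a noncoding RNA that carries the symbol of its neighbour, so the label of centrosomal genes holds for the other 30. The RefSeq table (GRCh38.p14, used for names only) lists 47 symbols of this form. The 16 without a peak were 9 protein-coding genes, CEP15, CEP20, CEP70, CEP72, CEP76, CEP95, CEP112, CEP135 and CEP295NL, and 7 pseudogenes or noncoding RNAs. The members were chosen by having a peak in these lists, which is therefore no finding, while the contrast of knockdown and control was not used to choose them.

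The lists come from MeRIP-seq, which sequences RNA fragments captured by an antibody to N6-methyladenosine (m6A). The cells were 143B, an established human osteosarcoma line, transfected for 48 h with siRNAs against the RNA demethylase ALKBH5, which takes the methyl group off m6A, or with scrambled siRNA. Each condition had 3 immunoprecipitated libraries with 1 list each, and the 6 input samples were not analysed here. Replicates 1 and 3 of both conditions started from polyadenylated RNA, with an antibody of Synaptic Systems in replicate 1 and of Millipore (ABE572) in replicate 3. Replicate 2 used a kit on total RNA, with the antibody MABE1006, while the antibody field of the labels names that of replicate 1 throughout. Libraries of the same number are therefore called a pair. Nothing in the labels says that the numbers were separate cultures, and a p-value measures only the spread between these samples.

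The lists held between 5677 and 18724 peaks without read counts, which leaves the depth of each library unknown. A gene was "called" in a library whose list has a peak with its gene number. A missing call can come from low RNA level or depth as well as from little methylation, and in bulk RNA fewer cells with a transcript and less RNA per cell cannot be told apart. ALKBH5 itself was called in 0 knockdown and 2 control libraries. Of 10 osteoblast and mesenchymal markers, 5 had a peak, among them RUNX2 and TWIST1, and none of 4 epithelial and 4 blood markers had one. Control replicate 1 stood apart from the other 5 libraries in its CEP calls, as given below, and the counts by gene, role and region are also given with both libraries of replicate 1 left out.

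The centrosome is the main microtubule-organizing centre of animal cells. It holds a pair of centrioles in a matrix of scaffold proteins, is copied once per cell cycle, and its older centriole can dock at the membrane and template a cilium. CEP proteins serve at each of these steps, and many are long coiled-coil proteins. On mRNA, m6A is known to gather in long exons and around stop codons.

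The main pattern among these genes was the number of calls. The knockdown libraries called 23, 10 and 24 of the 31 CEP genes in replicates 1, 2 and 3, and the control libraries called 30, 13 and 25. The control list therefore named more CEP genes in each pair, by 7, 3 and 1. Part of this was fixed by how members were chosen. In pair 1, 5 of the 7 were members only through control replicate 1. The 1 of pair 3, CEP83-DT, was a member only through control replicate 3, so pair 3 had no difference outside this choice. The mean was 19.0 ± 7.8 genes (SD, n = 3) after ALKBH5 siRNA and 22.7 ± 8.7 (SD, n = 3) after scrambled siRNA, a gap smaller than the spread between libraries. That spread includes the one between replicate numbers, with 10 and 13 calls in replicate 2, so it does not gauge the differences within pairs. Over all genes with a peak, the knockdown lists called 78.5, 32.0 and 86.6% and the control lists 66.5, 31.4 and 88.2%. For the CEP genes these shares were 74.2, 32.3 and 77.4% in the knockdown and 96.8, 41.9 and 80.6% in the control. In control replicate 1 every protein-coding member was called, 5 of them members through that list alone, which raised its share of 96.8%. That list named fewer genes in all than its knockdown partner. Its summed CEP length was 5.09 nt per 1000 nt covered by all genes, against 3.26 in knockdown replicate 1 and 3.28 to 4.37 in the other 4 lists.

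**Figure D1:**
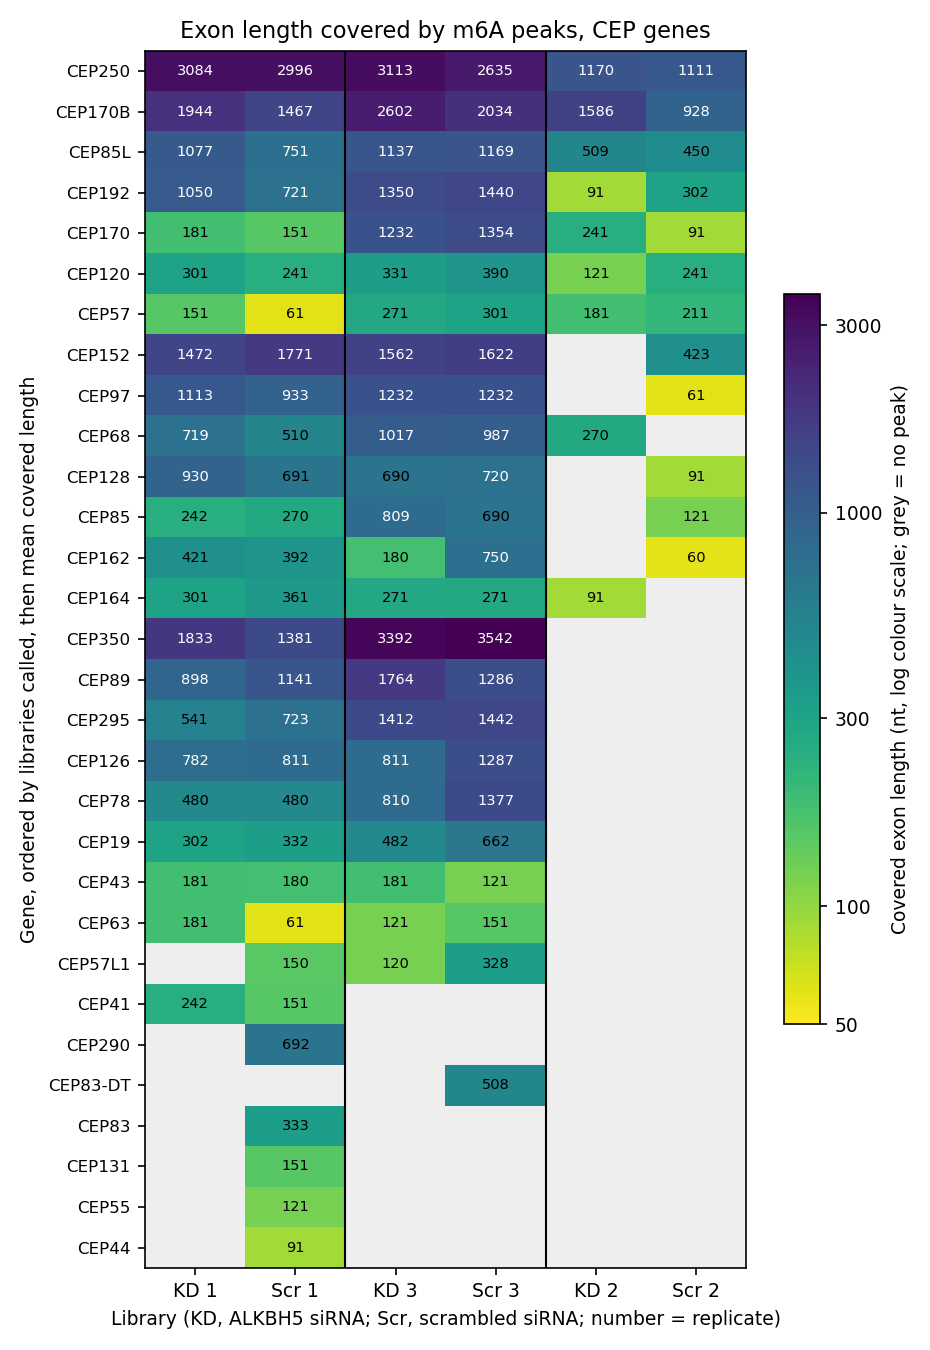
Exon length covered by m6A peaks (nt, logarithmic colour scale, number in each cell) for 30 of the 31 CEP genes in rows and the 6 libraries in columns, ordered by pair, with KD for ALKBH5 siRNA and Scr for scrambled siRNA. Grey cells have no peak; 7 genes at the top are called in all 6 libraries, and 5 of the 6 genes at the bottom have a peak in Scr 1 alone.

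Counted per gene, 2 members were called in more knockdown than control libraries, 13 in fewer and 16 in equal numbers. Among all 10536 genes, 26.1% were called in more knockdown libraries, 17.1% in fewer and 56.8% in equal numbers, against 6.45, 41.9 and 51.6% of the CEP genes. The 2 were CEP164, which docks centrioles to the membrane, and CEP68, a protein of the fibres that tie centrioles together. The 13 included CEP44, CEP55, CEP57L1, CEP83, CEP83-DT, CEP85, CEP97, CEP128, CEP131, CEP152, CEP162 and CEP290. For every one of these 15 genes the difference was 1 library. The counts carry no test, since the genes were chosen with earlier results of these data known. Of the 13, 6 had peaks in control libraries only (8.33% of all genes were of this kind), and 0 members had peaks in knockdown libraries only (7.21% of all genes). These 6 were members only through a control list, 5 of them through control replicate 1, so their direction was fixed by how members were chosen and supports nothing. Of the 25 members with a call in both conditions, 2 were called in more knockdown libraries, 7 in fewer and 16 in equal numbers. The shares over the 8898 genes with a call in both conditions were 22.3, 10.4 and 67.3%. No member had 3 calls in one condition and 0 in the other, where 12 of all genes (0.114%) did so for the knockdown and 3 (0.0285%) for the control.

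These counts rested in part on single libraries. With both libraries of replicate 1 left out, 25 members kept a call, of which 2 were called in more knockdown libraries and 6 in fewer, against 14.7 and 15.7% of the 10002 genes that remained. The 6 were CEP83-DT, CEP85, CEP97, CEP128, CEP152 and CEP162. With 1 library left out the groups hold unequal numbers and a pair is broken, and calls were then compared as shares of each group. All 31 members kept a call when a knockdown library was left out. Without knockdown replicate 1, 2 members were called in a larger share of knockdown libraries and 21 in a smaller share, against 32.2 and 44.0% of all genes. Without knockdown replicate 2 the counts were 11 and 8 (59.4 and 11.4% of all genes), and without knockdown replicate 3 they were 3 and 21 (25.7 and 50.2%). Without control replicate 1 they were 11 and 8 of the 26 members that kept a call (51.4 and 24.3% of all genes). They were 0 and 22 of 31 without control replicate 2 (20.8 and 49.8%), and 10 and 13 of 30 without control replicate 3 (61.3 and 14.0%). The direction of the CEP counts thus turned without knockdown replicate 2 or control replicate 1, where all genes also had more calls in the knockdown. With the best-scored 50% of each list, 25 members kept a call. Of these, 3 were called in more knockdown libraries and 10 in fewer, against 29.5 and 20.5% of all genes.

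The pairs differed in which members lost a call. A member counts as gained in a pair when only the knockdown list has it, and as lost when only the control list does. In pair 1, 0 members were gained and 7 were lost, where 16.9% of all genes were gained and 5.00% lost. The 7 included CEP44, CEP55, CEP57L1, CEP83, CEP131 and CEP290. Of these, CEP44, CEP55, CEP83, CEP131 and CEP290 were members only through control replicate 1, so their loss was fixed by that choice. In pair 2, CEP68 and CEP164 were gained and CEP85, CEP97, CEP128, CEP152 and CEP162 were lost, where 7.99% of all genes were gained and 7.35% lost. In pair 3, 0 members were gained and CEP83-DT was lost, where 6.28% of all genes were gained and 7.83% lost. CEP83-DT was a member only through control replicate 3. No gene was lost in more than 1 pair, so each of the 13 counts above came from a single pair. The overlap within pairs was otherwise close: all 23 members of knockdown replicate 1 were among the 30 of its control, all 24 of knockdown replicate 3 were among the 25 of its control, and replicate 2 shared 8 of its 10 knockdown and 13 control members. Of all genes, 61.5, 24.0 and 80.3% were called in both libraries of pairs 1, 2 and 3.

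**Figure D2:**
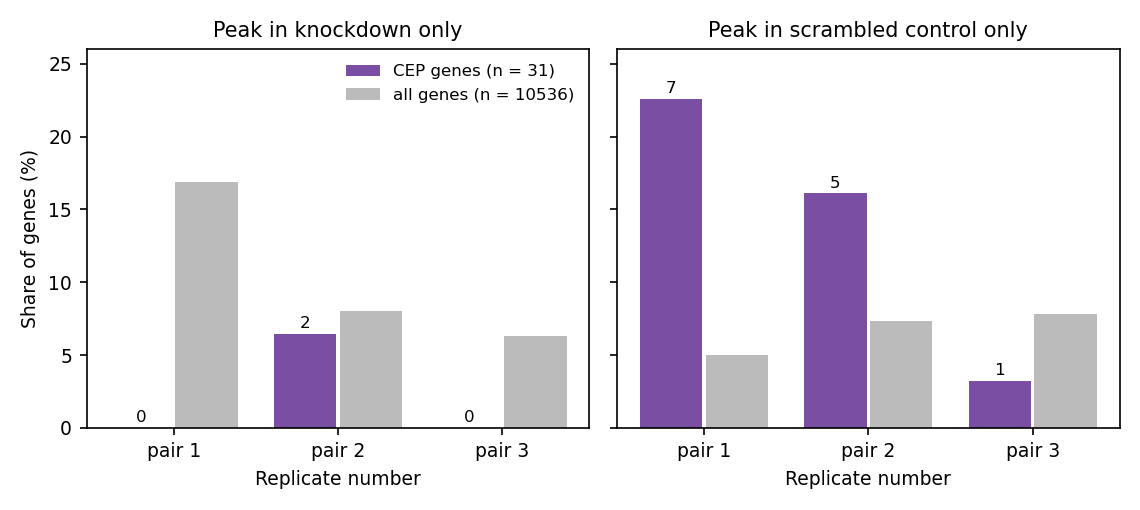
Share of genes (%) with a peak only in the knockdown library (left) or only in the control library (right) of each same-numbered pair, for the 31 CEP genes (purple, number of genes above the bar) and all 10536 genes (grey). In pair 1 no CEP gene is gained and 7 are lost, 5 of them members only through the control library of that pair.

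Among the genes of centriole assembly and duplication, 11 members had a peak, and 0 were called in more knockdown libraries, 5 in fewer and 6 in equal numbers, beside the 26.1, 17.1 and 56.8% of all genes given above. With replicate 1 left out, 10 kept a call, 0 in more, 3 in fewer and 7 in equal numbers (14.7, 15.7 and 69.6% of all genes); CEP44 and CEP57L1 had been lost in pair 1. CEP152, the scaffold on which the duplication kinase PLK4 gathers, had peaks over 1472, 0 and 1562 nt of exon in the knockdown against 1771, 423 and 1622 nt in the control (here and below the values of replicates 1, 2 and 3, knockdown first). It was the one CEP gene whose covered length was lower in the knockdown in all 3 pairs, which 1.42% of all genes were. Its peaks lay in 2 regions on the minus strand of chromosome 15 (hg19), at 49030345 to 49031485 and 49044605 to 49048727, and control replicate 2 called both. The first of these was a single unbroken stretch of 1141 nt. The groups overlapped, and the difference of -260.7 nt did not stand out (two-sided exact permutation test, p = 0.50, n = 3 per group; 1.00 after Benjamini-Hochberg adjustment over all genes). The difference was 245.0 nt without knockdown replicate 2 and -685.2 nt without control replicate 2, and it was below 0 under 11 of 12 alternative settings. Those that left out both libraries of a number could not turn the sign, since all 3 pairs had the same one.

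CEP192, which brings mitotic kinases and the microtubule nucleator to the centrosome, was called in all 6 libraries. It covered 1050, 91 and 1350 nt in the knockdown and 721, 302 and 1440 nt in the control, longer in the knockdown in replicate 1 only. The region at chromosome 18, 13048928 to 13049557 (plus strand, 630 nt in 1 stretch) was called in every library, and its neighbour at 13055835 to 13056644 in all but knockdown replicate 2. CEP120, a factor of centriole elongation, was likewise called in all 6 and covered 301, 121 and 331 nt against 241, 241 and 390 nt, in 1 region on chromosome 5, 122682018 to 122685687. CEP350, a large microtubule-binding protein, had 8 regions but no call in replicate 2 of either condition. In replicates 1 and 3 its peaks spanned 1833 and 3392 nt after knockdown against 1381 and 3542 nt. CEP295, needed to turn a new centriole into a centrosome, had 6 regions and the same gap in replicate 2, with 541 and 1412 nt against 723 and 1442 nt. CEP63, the partner of CEP152, was called in the same 4 libraries with at most 181 nt, and none of its 3 regions was shared by more than 2 of them. CEP97, part of the cap that holds back cilium growth, covered 1113, 0 and 1232 nt against 933, 61 and 1232 nt.

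Genes of the centriole appendages, the arms by which the older centriole holds microtubules and the membrane, numbered 6, of which 1 was called in more knockdown libraries, 2 in fewer and 3 in equal numbers (26.1, 17.1 and 56.8% of all genes). With replicate 1 left out, 5 kept a call, with 1 in more, 1 in fewer and 3 in equal numbers, since CEP83 was called in control replicate 1 alone. CEP170B, a close relative of the appendage protein CEP170, covered 1944, 1586 and 2602 nt against 1467, 928 and 2034 nt. The knockdown was longer in every pair, by 477, 658 and 568 nt, while the lowest knockdown value lay below the highest control value. The means were 2044.0 ± 515.3 nt (SD, n = 3) and 1476.3 ± 553.1 nt (SD, n = 3), and the test did not separate them (exact permutation test, p = 0.30; 1.00 after adjustment over all genes). An exact sign-flip test of 3 pairs cannot go below 0.25. CEP170B kept the longer length in the knockdown under each of 12 alternative settings (288.7 to 846.5 nt), which were not 12 separate checks. Leaving out both libraries of a number could not turn the sign, since all 3 pairs had the same one. Equal list length within pairs and positions of exactly 1 gene left the difference at 567.7 nt. Most of the CEP170B length lay in 1 of 3 regions, at chromosome 14, 105352447 to 105354449 on the plus strand, of which 1704 nt formed an unbroken exon stretch. There the peaks covered 1764, 1436 and 1794 nt in the knockdown and 1406, 928 and 1645 nt in the control. At 105349763 to 105350742 they covered 180, 150 and 658 nt against 61, 0 and 389 nt. A region of 150 nt at 105355795 to 105355944 was called in knockdown replicate 3 alone. The gap in pair 3 thus lay mostly outside the long region. The best CEP170B peak ranked between the 88.3 and 99.9 percentile of its list by score, where 100 is the best.

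CEP170 itself showed another layout. It had 8 regions, of which control replicate 3 called 8 and knockdown replicate 3 called 7, and the remaining 4 libraries called 1 or 2. Its covered length was 181, 241 and 1232 nt in the knockdown and 151, 91 and 1354 nt in the control. The region shared by all 6, on the minus strand of chromosome 1 from 243328840 to 243329199, was 360 nt long. CEP164 covered 301, 91 and 271 nt against 361, 0 and 271 nt, in a shared region on chromosome 11, 117282904 to 117283234. CEP128, of the subdistal appendages, covered 930, 0 and 690 nt against 691, 91 and 720 nt. CEP89, of the distal appendages, had no call in replicate 2 and covered 898 and 1764 nt against 1141 and 1286 nt. Its main region, on chromosome 19, 33457352 to 33461227 on the minus strand, held an unbroken stretch of 1413 nt.

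**Figure D3:**
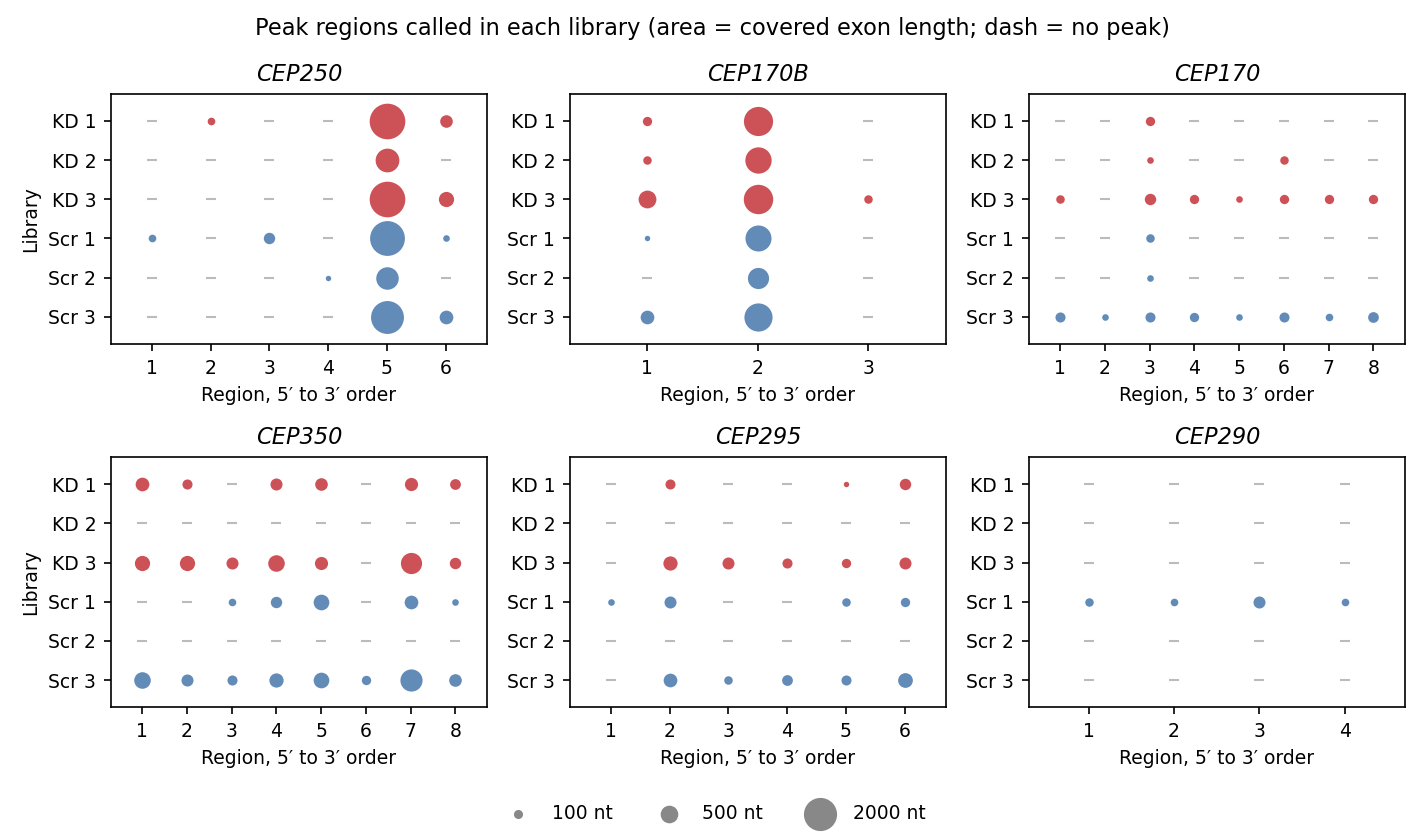
Peak regions of 6 CEP genes in transcript order (horizontal axis, 5′ to 3′) in each library (vertical axis, KD for ALKBH5 siRNA in red, Scr for scrambled siRNA in blue); the area of a circle is the covered exon length in nt and a dash is no peak. CEP250 and CEP170B carry 1 dominant region in all 6 libraries, CEP170 has most of its 8 regions in replicate 3 alone, and the 4 regions of CEP290 are in Scr 1 alone.

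The 2 genes of centrosome cohesion had longer coverage in the knockdown in all 3 pairs. CEP250 encodes C-Nap1, the anchor of the linker between centrioles. Its peaks covered 3084, 1170 and 3113 nt in the knockdown and 2996, 1111 and 2635 nt in the control. The knockdown was longer by 88, 59 and 478 nt, and the groups overlapped (exact permutation test, p = 0.50). Of its 6 regions, 1 was shared by all libraries, at chromosome 20, 34090405 to 34095983 on the plus strand, and with 2663 nt of exon it was the longest CEP region. An unbroken stretch of 2429 nt made up most of it. CEP68 covered 719, 270 and 1017 nt against 510, 0 and 987 nt, all in 1 region at chromosome 2, 65299003 to 65300079, and was longer by 209, 270 and 30 nt (exact permutation test, p = 0.60). With CEP170B, these were the 3 CEP genes (9.68%) with a longer covered length in the knockdown of every pair, against 13.0% of all genes, so the share was near the background. The length covered over all genes was itself longer in the knockdown lists, with ratios of 1.57, 1.13 and 1.00 within pairs. Whether the 3 genes differed from this list-wide shift was not tested. The sign turned for CEP250 and CEP68 under 3 and 2 of the 12 alternatives, down to -359.8 and -79.8 nt.

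**Figure D4:**
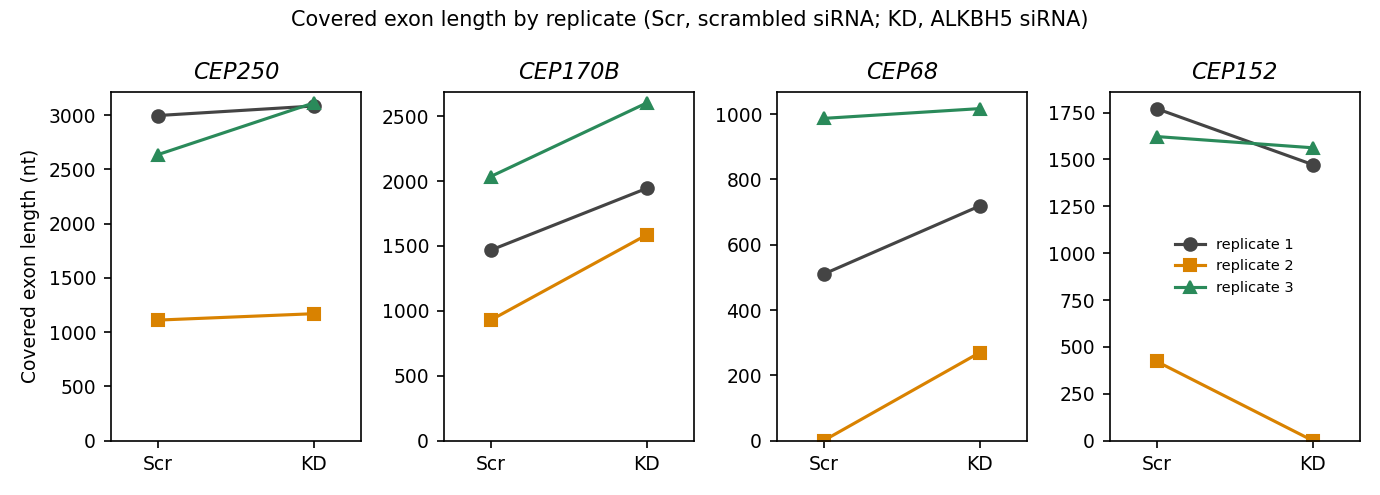
Covered exon length (nt, axis from 0, a scale of its own for each gene) in the scrambled control (Scr) and ALKBH5 knockdown (KD) library of each replicate, joined by a line. CEP250, CEP170B and CEP68 are longer in the knockdown in all 3 pairs and CEP152 is shorter in all 3, and in each gene the ranges of the groups overlap.

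No CEP gene had covered lengths that separated the groups, in either direction. Over all genes, 0.285% were higher in the knockdown without overlap and 0.0285% lower, 33 of the 10536 genes. Those 33 reached p = 0.10 in the two-sided exact permutation test, the smallest value that 3 against 3 allows, so 0 genes lay under 0.05 before adjustment and the lowest adjusted p was 1.00. Among the CEP genes the lowest p was 0.30. Both this test and the overlap of the groups ignore the pairs. The spread between replicate numbers therefore enters them, and a failure to separate does not gauge the differences within pairs. The summed CEP length was 18426, 4321 and 25280 nt in the knockdown and 18324, 4181 and 26689 nt in the control, with ratios of 1.01, 1.03 and 0.947 within pairs. Over all genes these ratios were 1.57, 1.13 and 1.00. The CEP genes had 48, 15 and 58 peaks in the knockdown and 69, 20 and 61 in the control, with ratios of 0.696, 0.750 and 0.951, where whole lists had ratios of 1.16, 1.04 and 0.981. The mean difference in summed CEP length was -389.0 nt, within the spread between libraries. Within pairs 1, 2 and 3 the differences were 102, 140 and -1409 nt. The mean difference ranged from -6497.5 nt without control replicate 2 to 5455.0 nt without knockdown replicate 2. It was 574.0 nt without control replicate 1 and 195.7 nt with the best-scored 50% of each list, so its direction was not settled.

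Genes of the centriolar satellites and the transition zone, the granules and the gate around the base of the cilium, numbered 4. Of these, 0 were called in more knockdown libraries, 3 in fewer and 1 in equal numbers (26.1, 17.1 and 56.8% of all genes). With replicate 1 left out, 2 kept a call, of which CEP162 was called in fewer and CEP126 in equal numbers. CEP290, a structural protein of the transition zone, had 4 peaks in control replicate 1 that covered 692 nt and no peak in the other 5 libraries. They lay on the minus strand of chromosome 12, and the longest, 300 nt of exon spread over 5926 bp, was at 88465177 to 88471102. CEP131, a satellite protein, had 1 peak of 151 nt, also in control replicate 1 alone. CEP162, which ties the axoneme to the transition zone, covered 421, 0 and 180 nt against 392, 60 and 750 nt. CEP126, also of the pericentriolar region, had 7 regions, none in replicate 2, and covered 782 and 811 nt in the knockdown and 811 and 1287 nt in the control.

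Of the cilium and tubulin group, 4 genes were called in equal numbers of knockdown and control libraries (56.8% of all genes). With replicate 1 left out, every gene of this group that kept a call was called in equal numbers (69.6% of all genes). CEP19 and CEP43, which act together at the ciliary base, were both called in replicates 1 and 3 of each condition. CEP19 covered 302 and 482 nt against 332 and 662 nt. CEP43 covered 181 and 181 nt against 180 and 121 nt, in a region that it shares with peaks listed for CCR6, so its own share of the region is uncertain. CEP78 covered 480 and 810 nt against 480 and 1377 nt in the same libraries. CEP41, needed for tubulin glutamylation in cilia, was called only in pair 1, with 242 nt in the knockdown and 151 nt in the control. CEP55, which brings the abscission machinery to the midbody, had 1 peak of 121 nt in control replicate 1 alone.

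Related genes differed in how widely they were called. CEP57, a scaffold protein that binds CEP63, was called in each of the 6 libraries, in a region on chromosome 11 from 95562484 to 95564508. It covered 151, 181 and 271 nt in the knockdown and 61, 211 and 301 nt in the control. Its relative CEP57L1 was called in 3 libraries and covered 0, 0 and 120 nt against 150, 0 and 328 nt. CEP85L was called in all 6, with 1077, 509 and 1137 nt against 751, 450 and 1169 nt, and its region at chromosome 6, 118886760 to 118887447 (minus strand, 688 nt unbroken) was shared by all libraries. CEP85, which restrains the kinase that splits centrosomes, was called in 5 and covered 242, 0 and 809 nt against 270, 121 and 690 nt. CEP170B and CEP170, given above, were both called in all 6 libraries, with 3 regions in the first, 1 of them long, and 8 short ones in the second.

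Regions, made by joining peaks of all lists that overlapped by at least 1 bp of exon on one strand, numbered 89 for the CEP genes. Of these 14 were called in more knockdown than control libraries and 39 in fewer, against 32.6 and 23.1% of all 21675 regions, which is 15.7 and 43.8% for the CEP regions. The genes CEP57, CEP85L, CEP120, CEP170, CEP170B, CEP192 and CEP250 had 1 region each that all 6 libraries called, and these 7 were 7.87% of CEP regions, against 12.7% of all regions. No CEP region had 3 calls in one condition and 0 in the other (0.129% of all regions did so with the knockdown calls and 0.00923% with the control calls). By gene, 22.6% of the CEP genes and 23.3% of all genes were called in every library. The shared CEP regions had a median of 630.0 nt of exon, and those called in 1 library had 121.0 nt, where the medians over all regions of these kinds were 900.0 and 120.0 nt. With both libraries of replicate 1 left out, 8 of 64 CEP regions were called in more knockdown libraries and 16 in fewer, against 19.8 and 21.0% of all regions. With the best-scored 50% of each list, 11 of 42 CEP regions were called in more and 14 in fewer (32.6 and 24.0% of all regions), which leaves little of the difference between 14 and 39. When knockdown replicate 1 was dropped, the counts were 19 and 59 of 85 (39.8 and 46.9% of all regions). They were 43 and 33 of 89 for knockdown replicate 2 (63.7 and 19.5%) and 14 and 68 of 89 for knockdown replicate 3 (31.5 and 55.2%). When control replicate 1 was dropped, they were 32 and 30 of 69 (54.4 and 31.6%). They were 12 and 66 of 88 for control replicate 2 (29.4 and 53.8%) and 45 and 36 of 88 for control replicate 3 (68.8 and 17.7%).

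Most CEP regions called in a single library came from control replicate 1. There were 34 such regions, 38.2% of the CEP regions, where 28.9% of all regions were called in 1 library. Control replicate 1 held 20 of the 34 (58.8%), and control replicate 3, knockdown replicates 1 and 3 and control replicate 2 held 5, 4, 4 and 1. Over all 6271 single-library regions control replicate 1 held 16.4%. The 20 regions lay in 13 genes. They included all regions of CEP44, CEP55, CEP83, CEP131 and CEP290, and extra regions in genes called elsewhere, such as 2 each in CEP89 and CEP250. CEP83, the innermost protein of the distal appendages, had 3 of them, the longest at chromosome 12, 94761637 to 94761930 (minus strand, 181 nt of exon). The 5 genes called in that library alone were 16.1% of the CEP genes, against 1.88% of all genes.

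The 20 regions were short and often crossed exon junctions. They covered 60 to 300 nt with a median of 120.5 nt, and 14 of them joined exon pieces across a junction. Of all regions called in control replicate 1 alone, 36.6% did so, with a median of 91.0 nt. Over all its CEP peaks, control replicate 1 had 27 of 69 (39.1%) with more than 1 exon block, while the other 5 libraries had 17.2 to 21.3%. For all peaks of a list these shares were 11.3% in control replicate 1 and 4.10 to 17.3% in the others. The scores of the 20 ranked between the 2.7 and 57.7 percentile of their list with a median of 20.9. The median over all regions called in control replicate 1 alone was 24.4. The best peaks of CEP83, CEP131 and CEP290 ranked at 57.7, 53.9 and 48.3, and those of CEP55 and CEP44 at 15.6 and 3.7. The part of this library in the lower knockdown counts was measured only by leaving it out, as given above, and RNA level and sequencing depth were not tested.

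**Figure D5:**
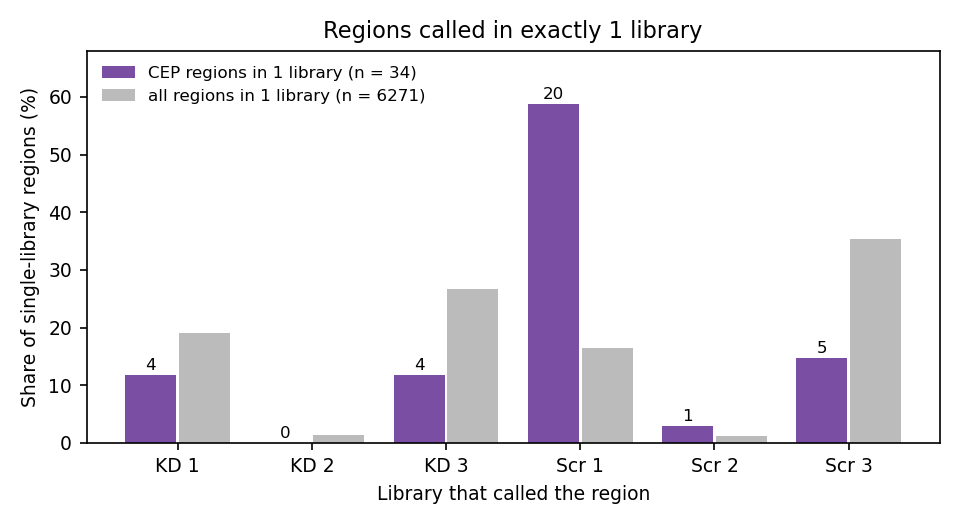
Share (%) of regions called in exactly 1 library that each library holds, for the 34 CEP regions (purple, number above the bar) and all 6271 such regions (grey); KD is ALKBH5 siRNA and Scr scrambled siRNA. Scr 1 holds 20 of the 34 CEP regions.

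CEP83-DT, the noncoding member, is transcribed from the strand opposite to CEP83. It had 2 peaks that covered 508 nt, in control replicate 3 alone, on the plus strand of chromosome 12 between 94853988 and 94854733. The CEP83 peaks lay on the minus strand and in another library, so the calls of the neighbours did not coincide.

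The calls of other centrosome genes are given beside those of the CEP genes; the difference between them was not tested. Of a list of 51 genes that holds no CEP symbol, 39 had a peak, of which 10 were called in more knockdown libraries and 10 in fewer (25.6% each, against 26.1 and 17.1% of all genes). Of the 10 in fewer, 3 (FBF1, HAUS5 and SCLT1) had a call in control replicate 1 alone. Of the 10 in more, 2 (KIAA0586 and TUBGCP2) had a call in knockdown replicate 3 alone. The direction of these genes was fixed by the need for a peak. With both libraries of replicate 1 left out, 35 kept a call, with 6 in more and 8 in fewer (17.1 and 22.9%, against 14.7 and 15.7% of all genes). Their calls were 30, 12 and 34 in the knockdown and 26, 15 and 33 in the control. In pair 1, 7 genes of the list were gained and 3 lost (17.9 and 7.69%, against 16.9 and 5.00% of all genes). The CEP genes were 0 gained and 7 lost there, and 5 of the 7 were members only through control replicate 1. HAUS7, a subunit of the augmin complex that branches spindle microtubules, was called in 3 knockdown and 1 control libraries, with 210, 90 and 450 nt against 0, 0 and 389 nt. TUBG1, the gamma-tubulin that nucleates microtubules, was also called in 3 and 1, with 237, 208 and 326 nt against 0, 0 and 208 nt. AURKA, a mitotic kinase, covered 91, 0 and 421 nt against 0, 0 and 421 nt. CCP110, which caps centrioles together with CEP97, covered 599, 0 and 602 nt against 690, 120 and 1528 nt and, like CEP97, lost its call in pair 2. ALMS1 covered 3877, 0 and 7469 nt against 2107, 182 and 7377 nt, and ASPM, a spindle pole protein, 964, 0 and 634 nt against 662, 211 and 1834 nt. None of the 39 had covered lengths that separated the groups.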

How the data were processed

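Peak lists of 6 immunoprecipitated libraries were used, grouped by sample title. Per the submitters' processing notes, CASAVA 1.8.2, TopHat2 and SAMtools were run on hg19, with the peak caller, its threshold and the use of input not given in the sources used here. The authors deposited a score per peak, read here as a p-value since it never exceeds 0.011, and it only ranked or filtered peaks within a list. Of 10536 gene numbers, 10500 matched a symbol. Covered length is the union of a gene's exon blocks. Coordinates are those of the lists, counted from 1, and no annotation of that build was used, so coding and untranslated positions were not told apart.

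Members and lists were chosen with earlier results of these data known. The naming rule took members or regions differing by 2 or more libraries (none did), non-overlapping members (none), the 6 longest members called in all 6 libraries, 3 pairs of related genes, the longest region of each of these genes, and 6 other centrosome genes. Other members were named after their values were seen, and 1 member is counted but not reported by name here. Covered lengths were compared by exact permutation over 20 splits for all genes, ignoring the pairs, with Benjamini-Hochberg adjustment. The calculations were tested on simulated data and run with Python 3.11.15.

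Same-numbered libraries were treated as pairs, since the extraction protocol gives each number its own RNA type and antibody. Their region calls also deviated together from the group means (correlations of 0.24, 0.31 and 0.29 for numbers 1, 2 and 3). Alternatives kept only the best-scored 50% of peaks, made list lengths equal within pairs, kept positions of exactly 1 gene, left out each library or number, asked for at least 2 peaks per call or a 50% overlap for regions, or used the replicate block.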

Additional observations from a re-analysis of the deposited data

How the results depend on the processing

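The settings were judged on 8 results: the CEP genes called in more (2) or fewer (13) knockdown libraries, the CEP regions likewise (14 and 39), the genes whose covered length was higher or lower without overlap (0 and 0), and the differences in CEP genes called per library (-3.7) and in covered length (-389.0 nt). Only the covered length of single genes was tested, and no CEP gene lay under 0.05 (exact permutation test, lowest p = 0.30). The counts of calls and the summed length carried no test. Fewer CEP genes were called in more than in fewer knockdown libraries under every setting that kept whole pairs. This was fixed in part, since 6 of the 13 had peaks in control libraries only and could never count as more. Among the 25 members with a call in both conditions the main counts were 2 and 7 (22.3 and 10.4% of all such genes).

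The replicate block, which compares within same-numbered pairs, gave 2 and 13 genes by calls. It gave 3 and 1 genes with covered length higher or lower in every pair (13.0 and 1.42% of all genes). The mean within-pair difference in covered length is the same -389.0 nt, and taken relative to each pair's mean it was -0.52%; the block changed no other call. With the best-scored 50% of each list, 11 and 14 of 42 regions were called in more and fewer knockdown libraries (32.6 and 24.0% of all regions). The genes were 3 and 10 of 25 (29.5 and 20.5% of all genes), and the covered length difference was 195.7 nt. Equal list length within pairs gave the same 2 and 13 genes by count (23.4 and 19.2% of all genes), as did positions of exactly 1 gene (26.1 and 17.0%). At least 2 peaks for a call gave 2 and 9 of 22 genes (33.3 and 23.9% of all genes with such a call). A 50% overlap gave 16 and 43 of 95 regions (33.7 and 24.0% of all regions).

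With both libraries of number 2 left out, 0 and 8 CEP genes were called in more and fewer knockdown libraries. The shares over all genes were 20.5 and 11%. In covered length, 2 and 2 CEP genes did not overlap. Without number 1, a setting chosen after seeing the data, there were 2 and 6 of 25 genes and 8 and 16 of 64 regions. Without number 3, also added, 2 and 1 genes did not overlap. The share of all genes without overlap was not computed with a number left out, and groups of 2 libraries separate more easily than groups of 3.

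Leaving out 1 library breaks a pair. The genes called in more knockdown libraries then ranged from 0 (without control replicate 2) to 11 (without knockdown replicate 2 or control replicate 1), and those in fewer from 8 (without the same 2 libraries) to 22 (without control replicate 2). Regions in more ranged from 12 to 45 and in fewer from 30 to 68. Genes without overlap ranged from 0 to 2 in each direction. The share of all genes was not computed there, and a group of 2 libraries separates more easily. The difference in genes called ranged from -8.5 to 0.8 and that in covered length from -6497.5 to 5455.0 nt. The lists hold no counts, so depth limits every missing call by an unknown amount.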
